A study of Gallus gallus with 6 samples.

Results

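Chicken miRNAs whose names carry a number of 1000 or more were examined in the testes of breeder cocks. A sequence was taken when its name in the deposited miRNA table began with gga-miR- (gga for Gallus gallus) followed by such a number, miR-2954 was left out, and lines that carried the same sequence were counted once. The rule found 185 of 1302 lines and 176 of 1151 distinct sequences. The rule read names only and used no measured value, though it was set with earlier results of these data known. The birds were Cobb500 cocks sampled at 40 weeks. The labels give 80 birds in all, with 5 replicates of 8 birds on each diet. The methods of the study give fewer birds and fewer replicates, and which holds was not settled here. The control group (C libraries) ate a corn and soybean diet, and the APS group (A libraries) ate the same feed with 10 g of Astragalus polysaccharide, a plant polysaccharide given as a feed additive, per kg. In each group 3 libraries were sequenced, C1 to C3 and A1 to A3, each from whole testis tissue, not a sorted cell type. The p-values below measure the spread between these 3 and 3 libraries.

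A miRNA is cut from a hairpin precursor, and either arm of the hairpin, 5p or 3p, may be loaded into an Argonaute protein. The seed, bases 2 to 8, sets most of which messenger RNAs the miRNA pairs with, and miRNAs that share a seed are grouped as a family. Numbers in miRNA names run roughly in the order of discovery, so the low numbers hold most of the ancient, abundant families and the high numbers hold many entries that deep sequencing added later, some of them found in chicken or in birds alone. Testis holds other small RNAs too, among them piRNAs, which are longer than miRNAs and are bound by PIWI proteins in germ cells.

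The 12 most abundant sequences are printed because most of the reads of these miRNAs belonged to them. They are given 5′ to 3′ as the deposited table has them, with T in place of U and the seed in capitals.
gga-miR-1451-5p: tCGCACAGgagcaagttaccgc
gga-miR-2188-5p: aAGGTCCAacctcacatgtcct
gga-miR-1416-5p: tCCTTAACtcatgccgctgtgc
gga-miR-1729-5p: aTCCCTTActcacatgagtagt
gga-miR-1805-3p: tGTATTGGaacactacagctcc
gga-miR-2131-5p: aTGCAGAAgtgcacggaaacagct
gga-miR-1559-5p: tTCGATGCttgtatgctactcc
gga-miR-7470-5p: tGTGATCTtgaagaacgtgggcct
gga-miR-1456-5p: aAAGGACGgaggcggcccgcgc
gga-miR-7468-3p: gCTTGATGgaagatgttgagcaggcc
gga-miR-3525: cAGCCATTctgcgattctgtga
gga-miR-1329-5p: aCAGTGATcacgttacgatggat
The 12 seeds all differ. Among the sequences of the table, none of the 12 shared its seed with a chicken miRNA of a number under 1000. The few shared seeds were those of a rare variant of the same miRNA or of an entry from another species. Examples are tgu-miR-2131 of the zebra finch beside miR-2131-5p and aca-miR-1805-3p of the anole lizard beside miR-1805-3p. The 317 sequences that the study predicted as new miRNAs were left out of this comparison.

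The whole table held between 497286 and 743187 counts a library. The testis label was checked against miRNAs known from gonad, where miR-202 summed to between 40046 and 66477 CPM (counts scaled to a common library size with TMM factors). The liver miRNA miR-122 summed to between 161 and 245 CPM, and the striated muscle list (miR-1, miR-133, miR-206) to between 118 and 220 CPM. Not every other list was low. The smooth muscle list (miR-143, miR-145) summed to between 60741 and 110810 CPM. The epithelium list (miR-200, miR-203, miR-205) summed to between 5877 and 7210 CPM and the neural list (miR-124, miR-9) to between 1574 and 2150 CPM. Libraries C2 and A3 stood apart, with 283 and 228 sequences detected under names of other species, against 170 to 192 in the other 4. No pair of libraries held the same counts.

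The high-numbered miRNAs made up a small share of the reads and most of them were rare. All 176 together held 15316 counts, 0.413% of all counts, while the other chicken sequences held 78.6%. Their share was 0.532%, 0.371% and 0.381% in C1 to C3 and 0.455%, 0.324% and 0.462% in A1 to A3, so the ranges of the groups overlapped. The summed level was 4234 ± 515 CPM in the control group and 4110 ± 453 CPM in the APS group (mean ± SD, n = 3 each). The median sequence had 2 counts over the 6 libraries, against 121 for the other chicken sequences and 12 for all sequences of the table. Of the 176, 77 (43.8%) were seen in a single library, with at most 2 counts, against 8.74% of the other chicken sequences. Only 47 (26.7%) were seen in all 6 libraries, against 73.8%. Each library detected between 77 and 97 of them.

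**Figure D1:**
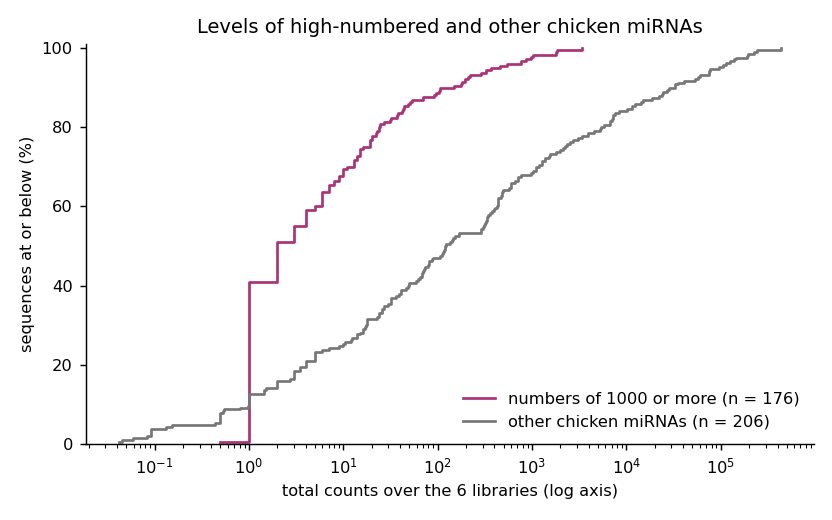
Cumulative share of sequences (%, vertical axis) at or below a total count over the 6 libraries (log horizontal axis), for the 176 chicken miRNAs with numbers of 1000 or more and the other chicken sequences. The high-numbered curve lies to the left, with a median of 2 counts against 121, and its step at 1 count holds many sequences; values below 1 come from reads divided between lines.

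The reads were concentrated in a few sequences. The first 3 held 45.7% of the 15316 counts and the first 12 held 82.4%. A mean of at least 10 counts a library was reached by 23 sequences, and a mean of at least 100 by 7. miR-1451-5p led with a mean of 909 CPM over the 6 libraries, the 63rd highest of all 1151 sequences, and miR-1329-5p, in place 12, stood at 79.3 CPM.

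miR-1451-5p was the most abundant. Its hairpin lies inside RNGTT, the gene of the mRNA capping enzyme, in the RefSeq annotation. It had 504, 653 and 425 counts in C1 to C3 and 513, 492 and 774 in A1 to A3. Its level was 902, 1009 and 775 CPM against 860, 755 and 1152 CPM, with A3 highest. The groups overlapped, and the spread within a diet was 18.4% of the mean. Counting error alone would give 4.23%, and the median spread of the 23 sequences with a mean of at least 10 counts was 23.0%.

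miR-2188-5p varied most of the 23 sequences with a mean of at least 10 counts. The miRNA is also known from fish, and its hairpin lies inside ANK1, which encodes the ankyrin of the red cell membrane skeleton. It had 679, 215 and 184 counts in C1 to C3 and 343, 241 and 175 in A1 to A3. In CPM these were 1216, 332 and 335 against 575, 370 and 260, so C1 alone stood far above the rest and the highest APS library was A1. The spread within a diet was 73.3% of the mean, against a median of 23.0% over the 23 sequences. The red cell miRNAs miR-451 and miR-144 (3 sequences, 2 of them seen in every library) summed to 283, 127 and 148 CPM in C1 to C3 and 256, 216 and 131 CPM in A1 to A3. Both were thus highest in C1, with A1 next. The vessel miRNA miR-126 had another order, with 5540, 18051 and 11482 CPM in the control libraries and 13232, 14538 and 3860 CPM in the APS libraries. The part of red cells in the level of miR-2188-5p was not tested, and in whole tissue fewer cells of a type and less RNA per cell cannot be told apart.

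**Figure D2:**
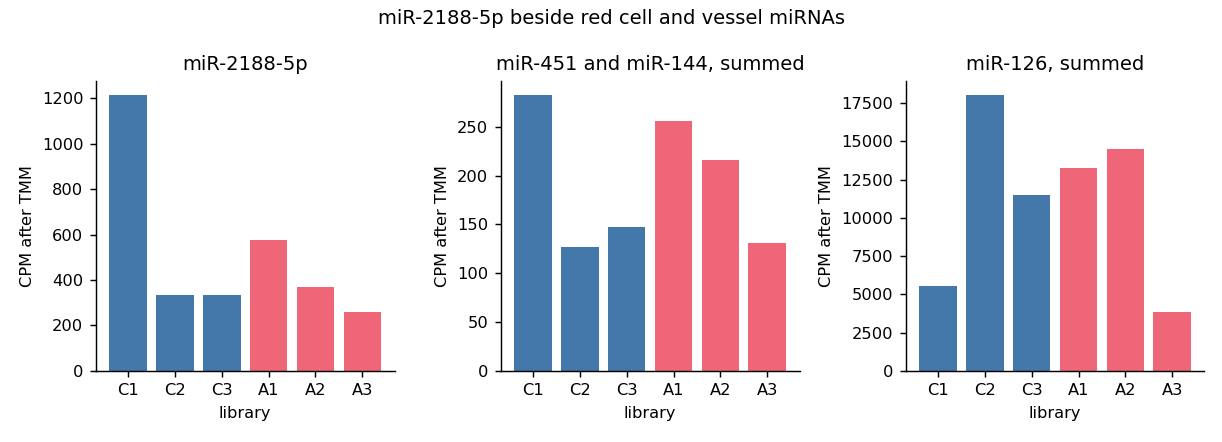
Level in CPM (vertical axes, from 0) of miR-2188-5p, of miR-451 with miR-144, and of miR-126 in each library (horizontal axes; C control, A APS). C1 is the highest library for miR-2188-5p (1216 CPM) and for the red cell pair (283 CPM) but not for miR-126 (5540 CPM).

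miR-1416-5p, inside MAMDC2, was the third. It had 208, 437 and 281 counts in C1 to C3 and 209, 237 and 437 in A1 to A3. One library of each group, C2 and A3, stood at 437, and these are also the libraries with the most sequences under names of other species. miR-1805-3p, inside the GABA receptor subunit gene GABRG3, had a wider spread (47.5% of the mean), with 149, 254 and 62 counts against 208, 95 and 210. Here C3 and A2 were low and the groups overlapped.

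miR-1729-5p lies inside SEPTIN5, a gene of the septin cytoskeleton. It had 120, 171 and 136 counts in the control libraries and 230, 197 and 168 in the APS libraries, or 242 ± 25.2 CPM against 313 ± 68.3 CPM. A3 (250 CPM) lay between C3 (248 CPM) and C2 (264 CPM), so the groups overlapped.

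miR-2131-5p, whose hairpin lies inside the nuclear cap-binding protein gene NCBP1 near MIR1583, had 123, 104 and 118 counts against 188, 153 and 172. miR-1559-5p, inside the integrin gene ITGAV, had 195, 195 and 157 CPM against 226, 222.6 and 256 CPM. In CPM all 3 APS libraries lay above all 3 control libraries for both, at 269 ± 41.5 against 199 ± 32.9 CPM and at 235 ± 18.3 against 182 ± 22.1 CPM.

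miR-7470-5p, for which the annotation gives no host gene, had 92, 59 and 92 counts in C1 to C3 and 111, 104 and 91 in A1 to A3, with C2 low. miR-1456-5p, inside LYRM7, a gene for the assembly of a respiratory chain complex, had 85, 81 and 80 against 59, 76 and 72. Its level was 141 ± 14.1 CPM in the control group and 108 ± 8.92 CPM in the APS group, with no overlap. It is also rich in G and C (77.3%, the highest of the 23).

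miR-7468-3p had 43, 42 and 54 counts in C1 to C3 and 65, 83 and 83 in A1 to A3, and every APS library lay above every control library. miR-3525 had 40, 55 and 79 against 57, 67 and 28.5, with A3 lowest and C3 highest. miR-1329-5p, inside the proton pump subunit gene ATP6V1C2, had 43, 62 and 47 against 46, 44 and 49. Neighbours in this order of levels often had overlapping libraries: the lowest library of miR-1451-5p (755 CPM) lay below the highest of miR-2188-5p (1216 CPM).

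**Figure D3:**
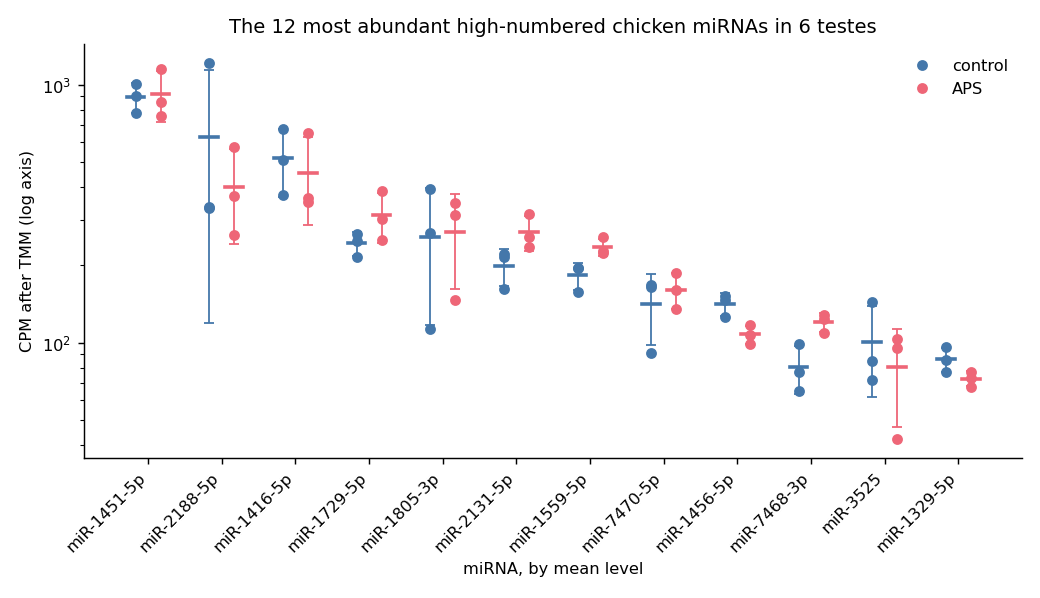
Level in CPM after TMM scaling (log vertical axis) of the 12 most abundant high-numbered chicken miRNAs, ordered by mean level on the horizontal axis; points are the 3 libraries of each diet, and bars give the mean and 1 SD. The levels fall from 909 CPM for miR-1451-5p to 79.3 CPM for miR-1329-5p, and C1 stands apart for miR-2188-5p.

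The 23 sequences with a mean of at least 10 counts spread within a diet by 9.42% to 73.3% of their mean. The median was 23.0%, against 19.9% for the other chicken sequences of that level and 23.3% for all such sequences of the table. Counting error alone gives a median of 14.4% here, since these miRNAs had fewer reads, and 6.89% for the other chicken sequences.

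Of the 176 sequences, 71 came from the 5p arm, 65 from the 3p arm and 40 carried no arm in the name. The 5p arm held 78.2% of the counts, close to the 80.6% of the other chicken sequences. Both arms were seen in 27 of 103 hairpins whose names give arms, against 50 of 98 for the other chicken miRNAs. Arms listed under lower-case names (gga-mir- with -p5 or -p3) were left out of all arm counts here. A hairpin can thus appear with 1 arm although the table holds the other. For example, gga-mir-7440-p5 held 72 counts beside 19 counts under gga-miR-7440. Among the 19 hairpins with both arms and at least 20 counts, the 5p arm led in 12 and the 3p arm in 7. The leading arm had a median of 9.65 times the counts of the other, with a range from 1.36 for miR-1684a to 370 for miR-7468, while the other chicken miRNAs had a median of 62.8. A rare second arm is often not seen at these counts, so these ratios cover the better measured hairpins only. Of the hairpins with at least 20 counts, 19 of 31 had both arms seen, against 48 of 79 for the other chicken miRNAs. A hairpin with few counts and both arms seen can show only a low ratio, so the medians are not on like terms.

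Both arms reached a mean of at least 10 counts in 2 hairpins, miR-1451 and miR-1729, and their minor arms are printed for comparison with the leading arms above, again with the seed in capitals.
gga-miR-1451-3p: cGTAACTCgctgctgtgagagg
gga-miR-1729-3p: cTACTCGGtgagtaaggatagc
miR-1451-3p had 43, 56 and 29 counts in C1 to C3 and 33, 19 and 39 in A1 to A3. With the rare variants of each arm added, the 5p arm had 11.7, 11.5 and 14.7 times the counts of the 3p arm in the control libraries and 15.5, 25.9 and 19.8 times in the APS libraries. The ratios did not overlap, and the exact permutation test of the log2 ratio gave two-sided p = 0.1 (n = 3 each), the smallest that 3 against 3 libraries allow (adjusted p = 0.2 over the 2 hairpins). For miR-1729 the ratios were 12, 10.7 and 8 against 10.5, 8.21 and 9.94, which overlapped (exact permutation p = 0.7, n = 3 each).

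miR-1456, miR-1329 and miR-7468 each had a strong leading arm. miR-1456-3p had no count in the control libraries and 1, 1 and 2 in the APS libraries, beside 453 counts in all for the 5p arm. miR-1329-3p had 5, 4 and 5 counts against 2, 2 and 2. miR-7468-5p had 1 count in all.

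Length, weighted by counts, differed between the number ranges. The deposited sequences run from 18 to 26 nt, the length filter of the study. The commonest length was 22 nt, with 70 of 176 sequences and 76.4% of the counts, while 28 sequences of 24 to 26 nt held 17.4% of the counts. In numbers below 4000 (104 sequences), 86.5% of the counts were 22 nt long and 8.15% were 24 to 26 nt. In numbers of 6000 or more (72 sequences), 10.2% of the counts were 22 nt long and 78.7% were 24 to 26 nt. Much of that came from miR-7470-5p and miR-7468-3p, and without them the share was 60.8%. Among the other chicken sequences it was 11.4%. By distinct sequences, 17 of the 72 were 24 to 26 nt long, against 11 of the 104 below 4000. The numbers of 6000 or more held 2017.5 counts in all, so these shares rest on few sequences, and whether any of the longer ones are other small RNAs was not tested.

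**Figure D4:**
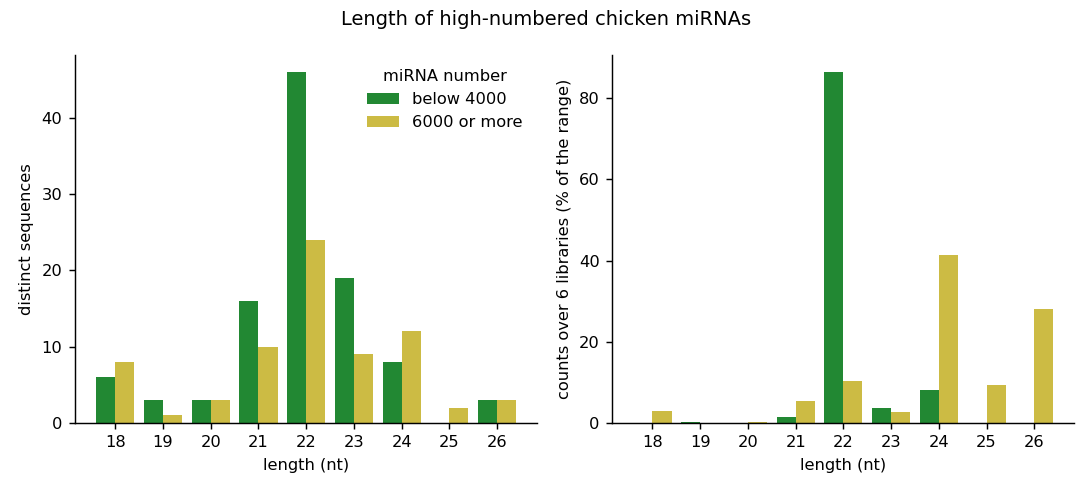
Number of distinct sequences (left) and share of the counts of each number range (right, %) by length in nt (horizontal axes), for numbers below 4000 and of 6000 or more. Most counts of the lower range are 22 nt long (86.5%), and most counts of the higher range are 24 to 26 nt long (78.7%).

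The other sequences of 24 to 26 nt among the 23 with a mean of at least 10 counts are printed to show the longer class, beside miR-2131-5p, miR-7470-5p and miR-7468-3p above, with the seed in capitals. miR-1552-5p and miR-2131-5p belong to the numbers below 4000 and held 212 and 858 counts, most of the long counts of that range, while the rest belong to the numbers of 6000 or more.
gga-miR-1552-5p: tTAGTGCGcggtaagctagggtgt
gga-miR-6678-3p: tACCTTGGacttctgaagggcagact
gga-miR-6651-5p: cACACCAGgttgcctaaggaggggt
gga-miR-7457-5p: gGCATTCAtagggctgtgatcggt
gga-miR-7483-5p: gCATGGTGtagtgacgcaggcaga
The suffixes of the deposited names give the bases gained or lost at each end against the database entry. By these, 12 of the 23 were longer than the entry, 8 had its length and 3 were shorter. The sequence of 26 nt under miR-6678-3p was 4 nt longer than its entry, that under miR-7468-3p 3 nt longer and that of 25 nt under miR-6651-5p 4 nt longer. The sequence of 24 nt under miR-7470-5p was 2 nt longer than its entry, while miR-2131-5p was 24 nt long with no change. The 5′ end, which sets the seed, was moved in 6 of the 23, by 3 nt in miR-7468-3p and miR-6651-5p and by 1 nt in miR-1456-5p, miR-1329-5p, miR-1664-3p and miR-1677-3p.

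Some sequences were near copies of others, which bears on how far their counts can be told apart. Others were reverse complements. miR-1684b-3p and miR-1684a-3p share 22 bases with 1 difference, A19C, counted from 1 at the 5′ end of miR-1684b-3p. They are printed with the differing base in capitals.
gga-miR-1684b-3p: aagtatgaggaaatggagAtct
gga-miR-1684a-3p: taagtatgaggaaatggagCtct
miR-3525 is the exact reverse complement of miR-3524a over 19 bases, shown here in capitals.
gga-miR-3525: CAGCCATTCTGCGATTCTGtga
gga-miR-3524a: CAGAATCGCAGAATGGCTGagt
miR-3529 is the reverse complement of the zebra finch entry tgu-miR-7-1-3p over 19 bases with 1 mismatch, and RefSeq places MIR3529 over MIR7-2. miR-3525 held 326.5 counts and miR-3524a 24.5. miR-3529 held 92 counts, with 12, 11 and 16 in C1 to C3 and 12, 13 and 28 in A1 to A3.

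By symbol or synonym, 131 of the hairpins (92.3%) matched a gene of the RefSeq annotation of GRCg7b, and 105 of these (80.2%) lay inside a protein-coding gene, against 73.3% of the 799 miRNA genes of that annotation. The strand was not in the table used here. One match, miR-3540, carries the symbol SCARNA15, a small Cajal body RNA, and lies inside PDE8A, a phosphodiesterase gene. It had 2, 1 and 11 counts in C1 to C3 and 6, 6 and 6 in A1 to A3, with C3 high.

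Whether the APS diet changed these miRNAs was tested with edgeR's quasi-likelihood test over the whole table. Of the 176 sequences, 76 passed the filter of a mean normalised value of at least 1 in either group, and the 100 left out had at most 6 counts each. None of the 76 had a Benjamini-Hochberg adjusted p under 0.05, and the lowest adjusted p was 0.69. Nor had any of the 774 sequences tested (0.0% called), where the lowest adjusted p was 0.56 by edgeR. At an unadjusted p under 0.05 there were 2 of 76, 1 higher and 1 lower, against 46 of 774 (5.94%, with 2.45% higher and 3.49% lower). The median log2 fold change was -0.14 over the 76 and -0.08 over all 774, with 34 above 0 and 42 below. Of the 23 with a mean of at least 10 counts, 12 were above 0, and their log2 fold changes ran from -0.64 to 0.76 with standard errors from 0.20 to 0.51.

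**Figure D5:**
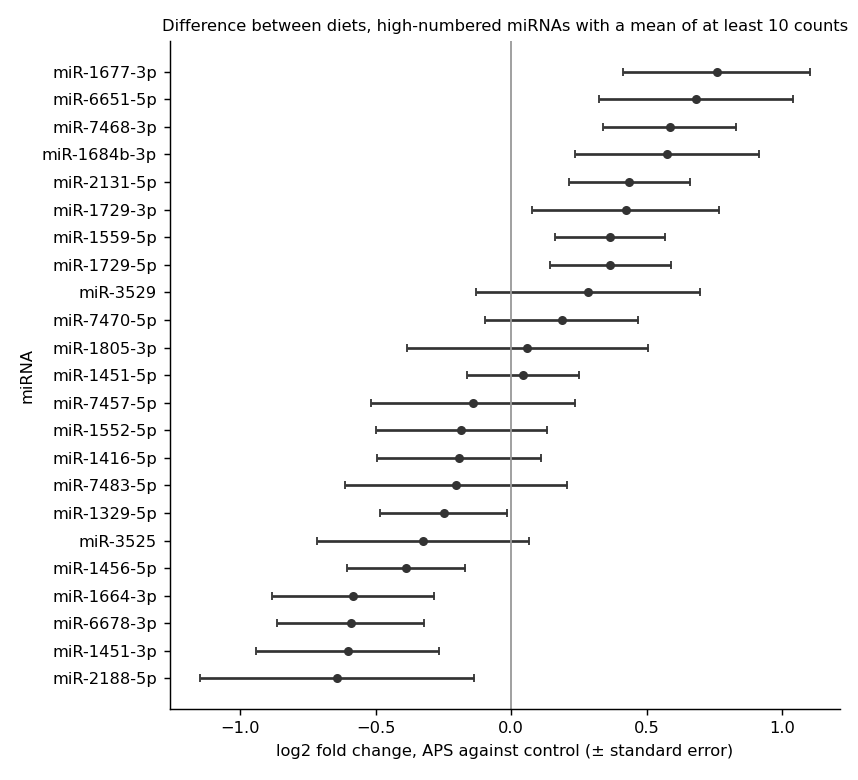
Log2 fold change of APS against control (horizontal axis, point with its standard error) for the 23 high-numbered miRNAs with a mean of at least 10 counts (vertical axis), from edgeR. The values run from -0.64 for miR-2188-5p to 0.76 for miR-1677-3p, and none had an adjusted p under 0.05.

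The sequence of miR-7468-3p had the lowest unadjusted p of the abundant ones. It stood at 77.0, 64.9 and 98.4 CPM in the control libraries and 109, 127 and 123 CPM in the APS libraries, a log2 fold change of 0.58 (SE 0.25, unadjusted p = 0.041, adjusted p = 0.69 by edgeR). All 3 APS libraries lay above all 3 control libraries. When 1 library was left out, the unadjusted edgeR p stayed under 0.05 in 1 of the 6 fits (0.020 without C3) and ran up to 0.13 without C2, and the adjusted p lay between 0.63 and 0.99 over the alternatives.

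The other call at an unadjusted p under 0.05 was miR-1684a-3p. It had 9, 10 and 0 counts in C1 to C3 and 0 in all 3 APS libraries, so C3 was at 0 as well and the groups overlapped. It passed the filter through the control libraries alone, so its fold and p-value are no support for a difference. Of the 76, 6 had 0 counts throughout 1 diet, 4 of them in APS and 2 in control. Its mean control level, 10.5 CPM, was at least 6.73-fold higher than the limit that 0 counts over the APS group allows (3 counts, 1.56 CPM; unadjusted p = 0.013, adjusted p = 0.69 by edgeR), and this bound covers counting error in the APS group only. When 1 library was left out, the unadjusted edgeR p stayed under 0.05 in 5 of the 6 fits. Without C2 the unadjusted edgeR p was 0.051, and without both C2 and A3 it was 0.11. The adjusted p was 0.0063 without the filter on low values and ran up to 0.99 over the other alternatives. In that unfiltered edgeR fit the unadjusted p of miR-2188-5p also fell, from 0.23 to 0.0037, though C1 alone stood high for it. The near copy miR-1684b-3p had 15, 12 and 9 counts against 20, 17 and 22. Together they had 24, 22 and 9 counts in C1 to C3 and 20, 17 and 22 in A1 to A3, which overlapped. The 5p arm miR-1684a-5p had 14 counts in all, 6 in the control group and 8 in the APS group.

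The libraries of the diets did not overlap in 12 of the 76 (15.8%), 7 higher and 5 lower with APS, against 13.2% of all 774 tested (6.07% higher and 7.11% lower). The share was thus near that of the whole table. Of the 12, 6 had a mean of at least 10 counts: miR-2131-5p (log2 fold change 0.44, SE 0.22), miR-1559-5p (0.37, SE 0.20), miR-7468-3p and miR-1677-3p (0.76, SE 0.34) higher, and miR-1456-5p (-0.39, SE 0.22) and miR-6678-3p (-0.59, SE 0.27) lower. miR-1677-3p, inside the ephrin receptor gene EPHA7, had 9, 12 and 15 counts against 23, 25 and 19. miR-6678-3p had 41, 33 and 38 against 24, 28 and 30. The other 6 had a mean under 10 counts, miR-1329-3p and miR-1456-3p among them. miR-1456-3p had no count in the control group and passed the filter through the APS libraries alone. The miRNAs miR-34b, miR-34c and miR-449 are known from meiotic and later germ cells and from ciliated cells. Their 11 sequences, of which 8 were seen in every library, summed to values from 819 to 990 CPM in the control group and from 1205 to 1377 CPM in the APS group. The white cell list (miR-142, miR-223, miR-155 and miR-146; 17 sequences, 12 of them seen in every library) did not overlap either, with a sum from 26430 to 31591 CPM in the control group and from 33697 to 35989 CPM in the APS group. The other marker lists overlapped between the diets. The part of either cell list in these differences was not tested.

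Of the 12 most abundant, some gave estimates near 0 or with a wide error, while others, such as miR-2131-5p and miR-7468-3p above, did not. The log2 fold change of miR-1451-5p was 0.04 (SE 0.21) and that of miR-1805-3p 0.06 (SE 0.45). That of miR-2188-5p was -0.64 (SE 0.51), and without C1 it was 0.27. miR-1416-5p had -0.19 (SE 0.30) and miR-1729-5p 0.37 (SE 0.22). The smallest standard error among the 23 was 0.20, that of miR-1559-5p, whose log2 fold change of 0.37 had an unadjusted edgeR p of 0.10.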

How the data were processed

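Small RNA of 6 testes was sequenced, 3 of each diet. The authors removed adapters and other RNA classes, kept reads of 18 to 26 nt and matched them to miRBase 21.0 with 1 mismatch allowed, using ACGT101-miR 4.2. For the genome build: not given in the sources used here. As deposited, raw values are estimated counts, since reads were divided between lines, and the deposited normalized values, a signal with 1 constant per library, are the raw values times that constant. The deposited p-values and the deposited fold ratio with its log2 are the authors' comparison and were not used. Here the raw values were summed per distinct sequence, rounded and tested with edgeR 4.0.16 (R 4.3.3; TMM, quasi-likelihood, Benjamini-Hochberg over 774 of 1151 sequences whose normalized values averaged 1 or more in at least 1 diet); SE was the log2 change over the root of F. Totals ran from 497286 to 743187 counts, and 3 counts per library equal 4.04 to 6.03 CPM. CPM used TMM sizes. limma 3.58.1 and DESeq2 1.42.0 served as alternatives.

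Named with values were the 12 highest by mean CPM, those with no overlap and an unadjusted p under 0.05, both arms where each had a mean of at least 10 counts, members sharing a seed at that level, and miR-1329, miR-1456, miR-1684a and miR-7468. miR-1552-5p, miR-6678-3p, miR-6651-5p, miR-1664-3p, miR-7457-5p, miR-1677-3p, miR-1684b-3p, miR-3524a, miR-3529, miR-3540 and miR-7483-5p were named after their values were seen. The members and lists were chosen with earlier results of these data known. Gene names and neighbours came from the coordinates of RefSeq's GRCg7b table. A host gene spans the whole hairpin gene, and neighbours are miRNA genes within 10000 bp. No coordinates are printed.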

Additional observations from a re-analysis of the deposited data

How the results depend on the processing

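No high-numbered sequence had an adjusted p under 0.05 in edgeR, DESeq2 or limma, except without the filter on low values, where 1 of them, miR-1684a-3p, and 12 sequences of the whole table did. The count at an unadjusted p under 0.05 was 2 of 76 with edgeR (46 of 774 over the whole table, given in brackets below too). It was 1 of 23 with a mean of at least 10 counts (20 of 337) and 3 of 174 without the filter (84 of 1123). DESeq2's Wald test gave 1 of 76 (23 of 774). Quantile normalization with limma-voom gave 7 of 76, 7 higher and 0 lower (58 of 774, 38 higher and 20 lower). With limma on the log2 normalized values it was 4 of 76 (52 of 774). Without C2 and A3, a setting chosen after seeing the data, it was 1 of 78 (63 of 740). Leaving out each library in turn gave 1 to 5 (31 to 59), the 5 without C3 (50 of 785). With the replicate block it was 3 of 76 (60 of 774). Whether the replicate numbers pair the libraries was not settled. Deviations of same-numbered libraries correlated at r = 0.18, 0.22 and -0.13. C1, C2, A1 and A2 correlated best with their own number, and C3 and A3 did not. With so few libraries these correlations cannot decide it.

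The ratio of the summed level, 0.97, ran from 0.91 to 1.10 when 1 library was left out and was 1.03 without miR-2188-5p. Of 27 named sequences with a fit, 17 kept the direction of the log2 fold change in every setting. With libraries left out, those that turned ran from -0.15 to 0.14 (miR-1451-5p), -0.98 to 0.27 (miR-2188-5p, above 0 without C1), -0.54 to 0.024 (miR-1416-5p), -0.29 to 0.47 (miR-1805-3p), -0.067 to 0.33 (miR-7470-5p), -0.58 to 0.028 (miR-3525), -0.32 to 0.27 (miR-1552-5p), -0.48 to 0.18 (miR-7457-5p), -0.33 to 0.51 (miR-3529) and -0.49 to 0.11 (miR-7483-5p). miR-1451-5p was also at -0.042 after quantile normalization and at -0.010 with counts summed per name. The cause was not tested. The median of all log2 fold changes was -0.08 and moved to 0.02 after quantile normalization. Depth limits the rest: 119 of the 176 had under 10 counts in all.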

Other observations

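The table also holds 42 sequences of chicken hairpins with numbers of 1000 or more under lower-case names (gga-mir- with -p5 or -p3). They held 1810.5 counts, and 7 had a mean of at least 10 counts a library, all of 24 to 26 nt. gga-mir-6562-p5 had 75, 77 and 54 counts in C1 to C3 and 61, 88 and 104 in A1 to A3, and gga-mir-6562-p3 had 56, 56 and 45 against 43, 73 and 68, so both arms of that hairpin overlapped between the diets. gga-mir-7481-p3 had 12, 29 and 28 against 29, 76 and 61, a log2 fold change of 1.12 (unadjusted p = 0.022, adjusted p = 0.69 by edgeR). gga-mir-7480-1-p5 had 38, 27 and 8 against 68, 44 and 59, a log2 fold change of 1.11 (unadjusted p = 0.039, adjusted p = 0.69 by edgeR). In CPM the libraries of the diets overlapped for both gga-mir-7481-p3 and gga-mir-7480-1-p5. Their unadjusted p-values were the lowest of the 16 that passed the filter. Of these, 2 of 16 had an unadjusted edgeR p under 0.05, against 46 of 774 over the whole table (5.94%). The other arm gga-mir-7481-p5 had 5, 7 and 7 counts against 5, 9 and 5, a log2 fold change of -0.13.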
